A study of Mus musculus with 6 samples.

Results

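The 10 genes described here encode proteins of elastic fibres (Eln, Emilin1, Fbn1, Fbn2 and Fbln5) and small leucine-rich proteoglycans (Lum, Dcn, Bgn, Ogn and Fmod) of the extracellular matrix. They were taken by gene symbol from a count table of 42747 rows. Each symbol matched 1 row, and all 10 passed the filter on low counts that left 18383 genes for testing. The samples were whole testes of fetal mice at E16.5, from 3 animals labelled cKO and 3 labelled WT, and polyadenylated RNA was sequenced from each. The series title places CK1α, a kinase whose gene is Csnk1a1, in Sertoli cells, the somatic cells that enclose the germ cells, so the label cKO was taken to mean loss of Csnk1a1 there. No source used here gives the floxed allele, the Cre driver, the strain or the full genotype of the WT mice. The comparison asks how these matrix transcripts of the fetal testis differ between cKO and WT mice.

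Elastic fibres have a core of elastin, the cross-linked product of Eln, laid down on a scaffold of microfibrils built from the fibrillins. Fibulin-5 helps to place elastin on that scaffold, and emilin-1 sits where elastin meets the microfibrils. The small leucine-rich proteoglycans have a core protein of leucine-rich repeats, bind collagen fibrils and affect their thickness and spacing. Decorin and biglycan carry chondroitin or dermatan sulfate chains, while lumican, fibromodulin and osteoglycin, the product of Ogn, can carry keratan sulfate. Connective tissue cells such as fibroblasts and smooth muscle are the usual source of these proteins, and Sertoli and germ cells lie inside the cords, apart from them.

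Libraries held 15092619 to 17431546 counts in cKO and 15281569 to 16646569 in WT. Csnk1a1 stood at 377 to 405 CPM, the count scaled to a common library total, in cKO testes and 348 to 396 CPM in WT testes, and its whole-gene count does not check the labels, since the deleted part is not given. Markers of the labelled organ were present in every library, with Amh of Sertoli cells averaging 100.4 FPKM in cKO testes and 533 FPKM in WT testes. Cyp17a1 of Leydig cells averaged 979 FPKM in cKO testes and 818 FPKM in WT testes, and Ddx4 of germ cells 40.8 FPKM in cKO testes and 45.1 FPKM in WT testes. cKO libraries 1 and 2 differed more from each other than any other pair of 1 group (chi-square per degree of freedom 42.3, against 13.8 to 19.9), and several results below are given without one of them. In whole-organ RNA, fewer cells of a type and less RNA per cell cannot be told apart.

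Levels were set side by side as FPKM, the authors' length-scaled values. Dcn had the highest mean of the 10 genes in cKO and in WT testes, but its range overlapped that of Eln in cKO, where library 2 held 142 FPKM of Dcn and 181 FPKM of Eln. In cKO testes the order of mean FPKM was Dcn (230.1), Eln (150.4), Emilin1 (107), Bgn (94.5), Fbn1 (60.2), Lum (55), Fbn2 (45.3), Ogn (28.7), Fbln5 (18.9) and Fmod (10.8). In WT testes it was Dcn (168), Bgn (94.9), Eln (85.6), Emilin1 (81.4), Fbn1 (60.3), Fbn2 (42.1), Lum (33.7), Ogn (29.2), Fbln5 (18.1) and Fmod (9.29). In WT, Dcn lay above all the others in every library, while the ranges of Bgn, Eln and Emilin1 ran into each other, as did those of Fbn1 and Fbn2, of Fbn2 and Lum, and of Lum and Ogn. Fbln5 and Fmod each stood apart from their neighbours. In cKO, the lowest Eln library (131 FPKM) lay above the highest Emilin1 library (114 FPKM), and Lum stood ahead of Fbn2 with overlapping ranges. Depth differed between the genes, with 9537 to 22140 counts a library for Eln and 460 to 789 for Fmod, the rarest.

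Of the 10 genes, Eln and Lum rose in cKO testes and the other 8 did not pass the test. The count of 2 called higher stands against 1.5% of all 18383 tested genes called higher by edgeR's quasi-likelihood test at a Benjamini-Hochberg adjusted p under 0.05 (3.35% in either direction). None of the 10 passed on the lower side by edgeR, by limma-voom or by DESeq2, against 1.84% of tested genes called lower by edgeR. With p left unadjusted, edgeR placed 3 of the 10 under 0.05 on the higher side and 0 on the lower side, against 7.75% and 8.03% of tested genes. The median log2 fold change of the 10 was 0.16, against 0.00 over all tested genes, and 7 of the 10 were positive, against 50.4% of all tested genes. For 3 genes, Eln, Emilin1 and Lum, the 3 cKO libraries lay above the 3 WT libraries, an arrangement held by 10.7% of tested genes, and none of the 10 showed the opposite one, held by 10.9%. The count or the genes called changed with each library left out. Across these fits the log2 fold change ran from 0.66 to 1.01 for Eln and from 0.62 to 0.86 for Lum. The count was 2 without cKO library 2, where the called genes were Lum and Dcn, and 1 (Eln) without cKO library 1 or without WT library 2. It was 0 without cKO library 3, WT library 1 or WT library 3. There, 134, 105 and 105 of all tested genes were called higher by edgeR, against 276 with all libraries.

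**Figure D1:**
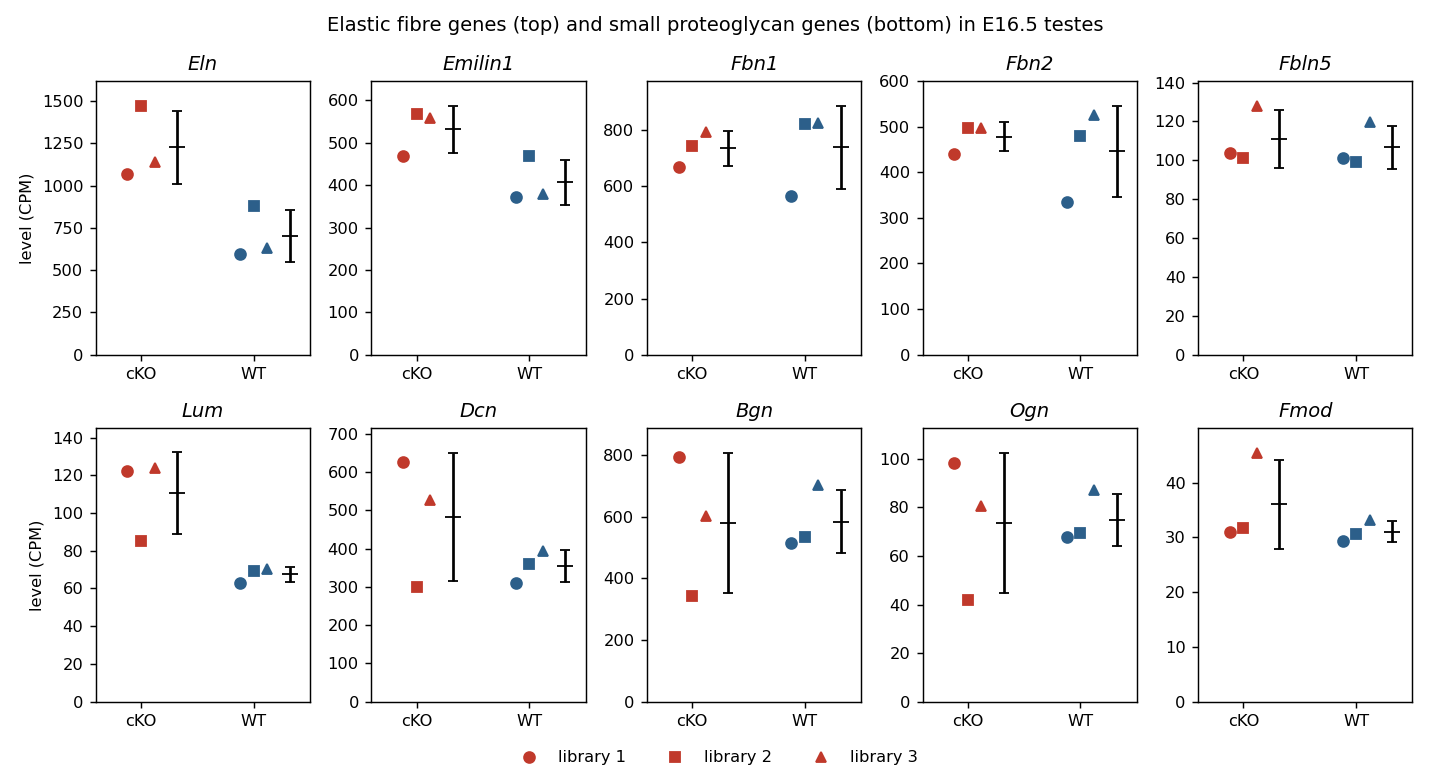
Level in CPM of each gene in the 3 cKO (red) and 3 WT (blue) libraries, elastic fibre genes above and small proteoglycan genes below, with the mean and SD of each group as black bars. Symbols give the library number within a group and do not pair animals. Eln and Lum are higher in cKO with no overlap, while in Dcn, Bgn and Ogn cKO library 2 is the lowest of all 6.

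Eln, the elastin gene, had the largest fold change of the 10. Its level was 1068, 1472 and 1141 CPM in cKO libraries 1, 2 and 3, against 594, 878 and 630.4 CPM in WT libraries 1, 2 and 3. Every cKO library lay above every WT library, and library 2 was the highest of its group in cKO and in WT. On average Eln stood at 1227 ± 215 CPM in cKO testes and 701 ± 155 CPM in WT testes (SD, n = 3 each), a log2 difference, cKO over WT, of 0.81 (SE 0.183, edgeR adjusted p = 0.0369), with a 95% confidence interval of 0.40 to 1.21. The gene lies on chromosome 5, minus strand, at 144374271 to 144422375 in the files' own coordinates, which follow the C57BL/6NJ assembly as all gene positions below do. The antisense gene Gm43278 overlaps it with a mean of 20.7 counts a library. The call was lost in 6 of 17 alternative fits. Without cKO library 2 the log2 fold change was 0.66 (edgeR adjusted p = 0.0589), without cKO library 3 it was 0.86 (edgeR adjusted p = 0.109), without WT library 1 it was 0.70 (edgeR adjusted p = 0.156) and without WT library 3 it was 0.74 (edgeR adjusted p = 0.199). The other losses were the limma-trend fits of FPKM, with adjusted p = 0.0908 and 0.0855.

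Emilin1, which encodes the elastin interface protein, leaned the same way without passing the test. It held 468, 568 and 559 CPM in cKO libraries 1, 2 and 3, against 372, 468 and 379.5 CPM in WT libraries 1, 2 and 3. The lowest cKO value and the highest WT value were equal to 3 digits, so the groups only just failed to overlap. The fitted log2 difference was 0.39 (SE 0.14, edgeR adjusted p = 0.197, 95% confidence interval 0.08 to 0.70), and none of the 17 alternative fits called it (adjusted p 0.0871 to 0.574). Emilin1 lies on chromosome 5, plus strand, at 30649983 to 30657858.

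The scaffold genes Fbn1, Fbn2 and Fbln5 showed overlapping groups. Fbn1, the main fibrillin of adult microfibrils, held 670.3, 743 and 795 CPM in cKO libraries 1 to 3, against 567, 823 and 826 CPM in WT libraries 1 to 3, with a log2 fold change of -0.01 (95% confidence interval -0.36 to 0.35, edgeR adjusted p = 0.992). Fbn2, the fibrillin best known from embryonic tissue, held 441, 497 and 498 CPM in cKO, against 334, 479 and 525 CPM in WT, with a log2 fold change of 0.10 (95% confidence interval -0.26 to 0.47, edgeR adjusted p = 0.824). The 3 cKO libraries of both fibrillins lay inside the range of the WT libraries, and WT library 1 was the lowest of all 6 for both. Fbln5, the gene of fibulin-5, held 104, 101 and 128 CPM in cKO, against 101, 99.3 and 119.6 CPM in WT, with a log2 fold change of 0.06 (95% confidence interval -0.24 to 0.35, edgeR adjusted p = 0.884). The upper bounds of these 3 intervals lie below the fitted change of Eln (0.81), but that of Fbn2 lies inside the interval of Eln (0.40 to 1.21). The 3 genes lie on chromosome 2 at 132585339 to 132797973, chromosome 18 at 59301133 to 59519226 and chromosome 12 at 106579559 to 106655832, all on the minus strand. The coding gene Gm9913 overlaps Fbn1 on the other strand with a mean of 9.67 counts a library.

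The rise of Eln relative to its partners was read within each library as a ratio of FPKM, which no library scaling can alter. Eln stood at 2.39, 2.97 and 2.15 times Fbn1 in cKO libraries 1, 2 and 3, against 1.57, 1.6 and 1.14 times in WT libraries 1, 2 and 3. The groups did not overlap, and the mean log2 ratio was higher in cKO by 0.80. The ratio of Fbln5 to Eln was 0.135, 0.0949 and 0.156 in cKO, against 0.237, 0.157 and 0.263 in WT, again without overlap, though cKO library 3 and WT library 2 nearly met. Eln also stood higher against Emilin1, at 1.24 to 1.58 in cKO and 0.974 to 1.15 in WT. The ratio of Fbn2 to Fbn1 was 0.725 to 0.774 in cKO and 0.674 to 0.736 in WT, with overlap. Of 7 ratios computed among the 10 genes, chosen with their levels known, 5 had groups apart, and each of these reached p = 0.1 in a two-sided exact permutation test (adjusted p = 0.14 over the 7), the smallest p that 3 libraries against 3 can give.

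**Figure D2:**
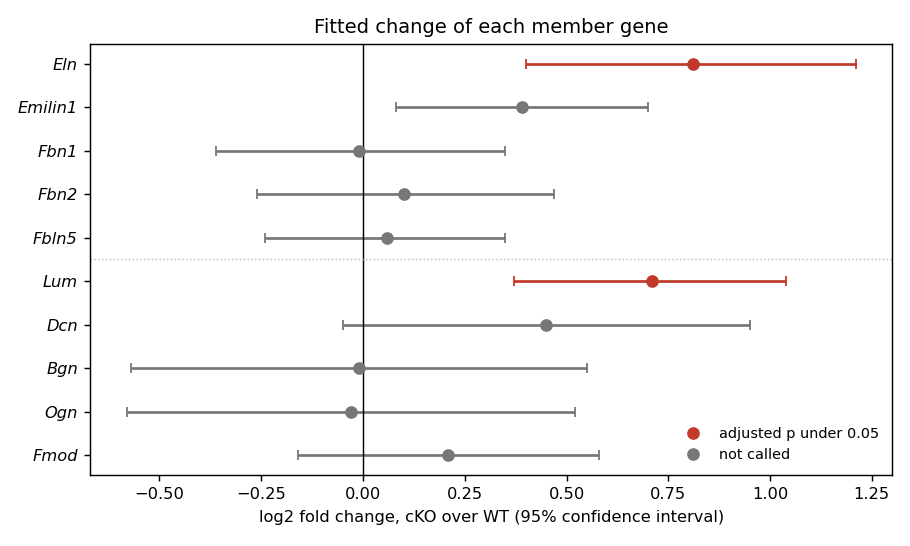
Fitted log2 fold change of each gene, cKO over WT, with its 95% confidence interval from edgeR, elastic fibre genes above the dotted line and small proteoglycan genes below it. Red marks genes with an adjusted p under 0.05, which are Eln at 0.81 and Lum at 0.71. The intervals of Bgn and Ogn are the widest of the 10.

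Lum, the gene of lumican, was the small proteoglycan that rose. It held 122, 85.3 and 124 CPM in cKO libraries 1, 2 and 3, against 63, 69.3 and 70.4 CPM in WT libraries 1, 2 and 3. Every cKO library was above every WT library, but cKO library 2 stood nearer to WT than to the other cKO libraries. Lum averaged 110.2 ± 21.6 CPM in cKO testes and 67.6 ± 3.99 CPM in WT (SD, n = 3 each), a rise of 0.71 on the log2 scale (SE 0.151, edgeR adjusted p = 0.0271) with a 95% confidence interval of 0.37 to 1.04. The call was lost in 7 of 17 alternative fits. The log2 fold change was 0.63 without cKO library 1 (edgeR adjusted p = 0.0503), 0.62 without cKO library 3 (edgeR adjusted p = 0.147), 0.66 without WT library 1 (edgeR adjusted p = 0.144), 0.73 without WT library 2 (edgeR adjusted p = 0.0932) and 0.74 without WT library 3 (edgeR adjusted p = 0.111). The limma-trend fits of FPKM gave adjusted p = 0.0796 and 0.0749.

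Dcn, which encodes decorin, lies next to Lum on chromosome 10, with 48.9 kb and no annotated gene between Dcn (102641749 to 102682155) and Lum (102731074 to 102739325), both on the plus strand. Dcn held 626, 299 and 526 CPM in cKO libraries 1, 2 and 3, against 310.2, 359 and 393 CPM in WT libraries 1, 2 and 3. cKO libraries 1 and 3 were above all WT libraries and cKO library 2 was below them all. Over all 6 libraries the fitted log2 difference was 0.45 (SE 0.226, edgeR adjusted p = 0.376, 95% confidence interval -0.05 to 0.95). It was 0.70 without cKO library 2 (edgeR adjusted p = 0.0173) and 0.22 without cKO library 1 (edgeR adjusted p = 0.605), so leaving out 1 library changed the call of Dcn. With no low-count filter it was also called, at 0.46 (edgeR adjusted p = 0.0433). The ratio of Lum to Dcn was 0.204, 0.299 and 0.247 in cKO and 0.213, 0.203 and 0.188 in WT, with overlap. Kera and Epyc, the next proteoglycan genes along this stretch, were rare. Epyc averaged 0.328 FPKM in cKO testes and 0.419 FPKM in WT testes, and Kera, at 0.218 FPKM in cKO testes and 0.0619 FPKM in WT testes, was below the filter.

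Bgn, the gene of biglycan, and Ogn had nearly equal group means but spread widely among the cKO animals. Bgn held 795, 343 and 602 CPM in cKO libraries 1, 2 and 3, against 516, 535 and 702 CPM in WT libraries 1, 2 and 3, with a log2 fold change of -0.01 (95% confidence interval -0.57 to 0.55, edgeR adjusted p = 0.989). Ogn held 98.1, 41.7 and 80.7 CPM in cKO libraries 1, 2 and 3, against 68, 69.6 and 87.2 CPM in WT libraries 1, 2 and 3, with a log2 fold change of -0.03 (95% confidence interval -0.58 to 0.52, edgeR adjusted p = 0.968). The 6 libraries fell in the same order for both genes, from cKO library 2 at the bottom to cKO library 1 at the top. Without cKO library 2 the log2 fold change of each was 0.26, with edgeR adjusted p = 0.515 for Bgn and 0.440 for Ogn. The highest cKO library was 2.32 times the lowest for Bgn and 2.35 times for Ogn, and 2.09 times for Dcn, while the same span in WT was 1.36 times for Bgn, 1.28 times for Ogn and 1.27 times for Dcn. The ratio of Bgn to Dcn held closer, at 0.435, 0.393 and 0.392 in cKO libraries 1, 2 and 3, against 0.570, 0.510 and 0.611 in WT libraries 1, 2 and 3. On this measure the groups did not overlap (log2 difference -0.47, two-sided exact permutation p = 0.1, the smallest possible). The ratio of Lum to Bgn also stood apart, at 0.469 to 0.762 in cKO and 0.308 to 0.398 in WT. Bgn lies on chromosome X at 71368584 to 71382173 and Ogn on chromosome 13 at 50051125 to 50067554, both on the plus strand. The coding gene Cenpp overlaps Ogn on the opposite strand with a mean of 127 counts a library, and without a stated strand setting some reads could be shared.

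The promoters of Bgn and Ogn are shown because their levels followed each other most closely among pairs of the 10 genes (Pearson's r 0.99 over 6 libraries that share their scaling, a description). RefSeq promoter windows (GRCm38.p6, 250 bases before to 50 after the start) matched 6 of the 10 genes. Capitals mark matches on either strand to the TATA box TATAAA or to the TCF/LEF motif, through which β-catenin acts, searched in the form CTTTGAA, in the form CTTTGAT, in the form CTTTGTA and in the form CTTTGTT.
Bgn (chrX:73483351-73483650, plus strand): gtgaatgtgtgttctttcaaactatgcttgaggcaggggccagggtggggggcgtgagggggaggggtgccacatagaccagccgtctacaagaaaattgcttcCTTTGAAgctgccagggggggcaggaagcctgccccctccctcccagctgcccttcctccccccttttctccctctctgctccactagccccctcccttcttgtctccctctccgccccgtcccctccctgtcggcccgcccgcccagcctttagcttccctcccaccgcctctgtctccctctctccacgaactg
Ogn (chr13:49607765-49608064, plus strand): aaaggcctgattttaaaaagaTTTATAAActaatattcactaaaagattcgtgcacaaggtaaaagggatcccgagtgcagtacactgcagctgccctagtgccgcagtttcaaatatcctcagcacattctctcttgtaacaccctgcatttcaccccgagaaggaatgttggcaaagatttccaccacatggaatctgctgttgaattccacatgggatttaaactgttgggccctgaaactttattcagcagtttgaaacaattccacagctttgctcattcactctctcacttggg
The Bgn window held 1 TCF/LEF match, CTTTGAA at position -146 from the start, and no match to TATAAA. The Ogn window held letter matches to TATAAA on both strands at overlapping positions -229 and -227 and no TCF/LEF match. Whether these letters act as a TATA box was not tested. The windows of Emilin1, Fbn1, Fmod and Fbln5 held neither motif. Over all 32851 windows, 13.6% held a TATA box match and 16.9% a TCF/LEF match, so these counts describe the letters of the windows and no more.

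Fmod, the gene of fibromodulin and the rarest of the 10, held 30.9, 31.8 and 45.4 CPM in cKO libraries 1, 2 and 3, against 29.4, 30.6 and 33.2 CPM in WT libraries 1, 2 and 3. Only cKO library 3 stood out. The fitted log2 difference was 0.21 (edgeR adjusted p = 0.593, 95% confidence interval -0.16 to 0.58), and 0.01 without cKO library 3. On chromosome 1 Fmod (142699211 to 142715887, plus strand) lies 121 kb from Prelp, another proteoglycan gene, with no coding gene between them. Prelp, a low gene, rose to 15 ± 4.58 CPM in cKO, against 5.83 ± 0.162 CPM in WT (log2 difference 1.37, SE 0.252, edgeR adjusted p = 0.0124). Optc, which lies 2.15 kb from Prelp, averaged 2.58 ± 0.504 CPM in cKO testes and 4.31 ± 0.598 CPM in WT testes and did not pass the test (log2 difference -0.74, edgeR adjusted p = 0.281). The call of Prelp was lost without cKO library 3 and without any 1 of the WT libraries, at log2 fold changes of 1.33 to 1.39 and edgeR adjusted p of 0.0583 to 0.0681.

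**Figure D3:**
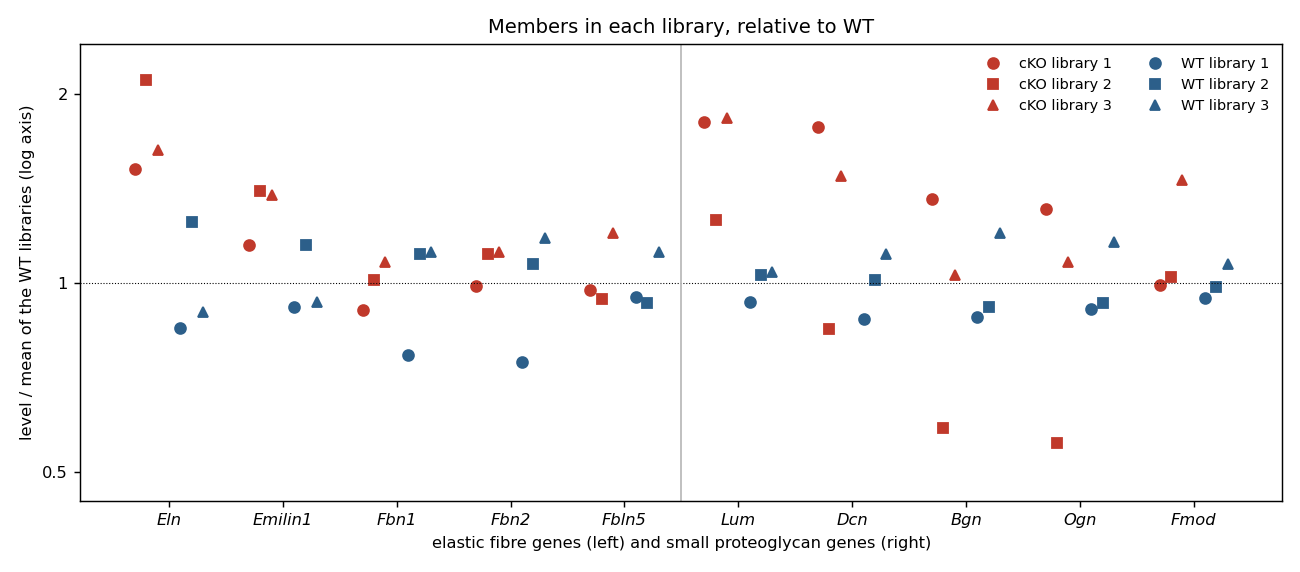
Level of each gene in each library divided by the mean of the 3 WT libraries, on a log axis, with cKO libraries (red) left of WT libraries (blue) for each gene. cKO library 2 (red squares) is the highest cKO library for Eln, at 2.1 times the WT mean, and the lowest for Lum, Dcn, Bgn and Ogn, down to 0.556 times for Ogn. WT library 1 (blue circles) is the lowest for Fbn1 and Fbn2.

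Within the cKO group the 10 genes thus fell into sets that ran opposite ways between libraries. Library 2 was the lowest cKO library for Lum, Dcn, Bgn, Ogn and Fbln5, and the highest for Eln and Emilin1. Library 3 was the highest cKO library for Fbn1, Fbn2, Fbln5, Fmod and Lum. In WT the spread was smaller for the proteoglycans (highest over lowest 1.12 to 1.36 times), and WT library 1 was the lowest WT library for 9 of the 10 genes, all but Fbln5. By the mean of the standardised log2 CPM of the 10 genes, the tested genes of most similar profile over the 6 libraries included Col6a1, a chain of collagen VI, Mylk, the myosin light chain kinase of smooth muscle, Sh3pxd2b, an adaptor protein of podosomes, and Heg1, an endothelial receptor. Pcdh9, Cachd1, Acacb, Pcdhga11, Gm27028 and 1 predicted gene without a name made up the rest of the 10 most similar. Pearson's r ran from 0.966 to 0.988 for these 10 over 6 libraries, a description picked as the top of 18383 genes, and the libraries of each gene share the same scaling.

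Most other genes of the elastic fibre did not pass the test. Of all tested genes, edgeR called 1.5% higher and 1.84% lower, the shares to set beside the counts of this and the later lists. Of 29 tested genes for scaffold and assembly, which include the 5 elastic fibre genes above, 3 rose, 1 fell and 25 did not pass the test, with a median log2 fold change of 0.28 against 0.00 over all tested genes. Besides Eln, the rises were those of Mfap2 and Adamts17. Mfap2 encodes a glycoprotein of microfibrils and had the highest FPKM of the list in cKO testes and over all 6 libraries, while Mfap4 was higher in WT testes (mean 195 FPKM, against 175 FPKM for Mfap2). Mfap2 held 305, 349 and 334 CPM in cKO, against 188, 257 and 197 CPM in WT (log2 difference 0.62, SE 0.142, edgeR adjusted p = 0.0389). Adamts17, a secreted metalloprotease linked to microfibrils, rose to 83.1 ± 6.85 CPM in cKO, against 44.7 ± 12.9 CPM in WT (log2 difference 0.89, edgeR adjusted p = 0.0259). Emilin3, a relative of Emilin1, fell to 150.1 ± 22.1 CPM in cKO, against 238 ± 40.8 CPM in WT (log2 difference -0.66, SE 0.155, edgeR adjusted p = 0.0421). In all 3 genes the groups lay apart. Mfap4, which binds elastin and fibrillin, held 690.5, 336 and 425 CPM in cKO and 389.6, 342 and 455 CPM in WT, with cKO library 2 the lowest of all 6 (log2 difference 0.29, edgeR adjusted p = 0.594). The count of rises was 1 without cKO library 2, 4 without cKO library 1, and 0 without cKO library 3, WT library 1 or WT library 3. Emilin3 lost its call without any 1 library other than cKO library 2 (log2 difference -0.76 to -0.51, edgeR adjusted p 0.0598 to 0.165), and the count of falls was 2 without that library. The limma-trend fits of FPKM also lost the call of Emilin3, with adjusted p = 0.105 and 0.1.

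Lysyl oxidases cross-link elastin and collagen. None of the 5 tested was called by edgeR with the low-count filter or by limma-voom, while DESeq2, and edgeR with no such filter, each called 2 higher. Before adjustment edgeR placed 3 of the 5 under 0.05, 2 of them higher and 1 lower (median log2 fold change 0.33). Of all tested genes, 7.75% were higher and 8.03% lower at that threshold. Without cKO library 2 the count called higher was 1. Loxl1, which cross-links elastin, held 208, 175 and 219.5 CPM in cKO, against 119, 159.9 and 143 CPM in WT, with groups apart (log2 difference 0.51, SE 0.141, edgeR adjusted p = 0.0827). Loxl3 stood at 0.57 (edgeR adjusted p = 0.0747). Lox held 314, 188 and 249 CPM in cKO, against 154, 204 and 237 CPM in WT (0.33, edgeR adjusted p = 0.459).

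Of 15 tested small leucine-rich proteoglycan genes, 5 of them described above, Lum and Prelp rose and 13 did not pass the test, with a median of -0.01. No gene of the list passed on the lower side by edgeR, by limma-voom or by DESeq2, and 1, Optc, was lower at an unadjusted p under 0.05. The count of rises was 1 without cKO library 1 (Prelp), 3 without cKO library 2 (Lum, Dcn and Prelp), and 0 without cKO library 3 or any 1 WT library. Among 26 tested genes that build or sulfate glycosaminoglycan chains, 1 rose and 1 fell (median 0.22). Xylt1, whose enzyme adds the first sugar of a chain to a core protein, fell to 40.4, 57.2 and 39.3 CPM in cKO libraries 1, 2 and 3, against 64.2, 80.4 and 89.2 CPM in WT libraries 1, 2 and 3 (log2 difference -0.77, SE 0.175, edgeR adjusted p = 0.0369). Its relative Xylt2 was not called (log2 difference 0.24, edgeR adjusted p = 0.388). Over all 6 libraries Xylt2 averaged 16.2 FPKM, against 6.34 FPKM for Xylt1. Chst2, a sulfotransferase acting on N-acetylglucosamine, rose to 87.8, 120.1 and 84.3 CPM in cKO, against 50, 71.5 and 46.3 CPM in WT (log2 difference 0.80, SE 0.188, edgeR adjusted p = 0.0439). The most abundant of the list by FPKM were B3gat3 (0.36, edgeR adjusted p = 0.247) and Chsy1 (-0.09, edgeR adjusted p = 0.771). Xylt1 lost its call without cKO library 1 or 3 or WT library 2 or 3 (edgeR adjusted p 0.0657 to 0.202), and Chst2 without cKO library 2 or 3 or WT library 1 or 3 (edgeR adjusted p 0.0726 to 0.233). The limma-trend fits of FPKM called neither Xylt1 (adjusted p = 0.122 and 0.124) nor Chst2 (adjusted p = 0.115 in each).

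**Figure D4:**
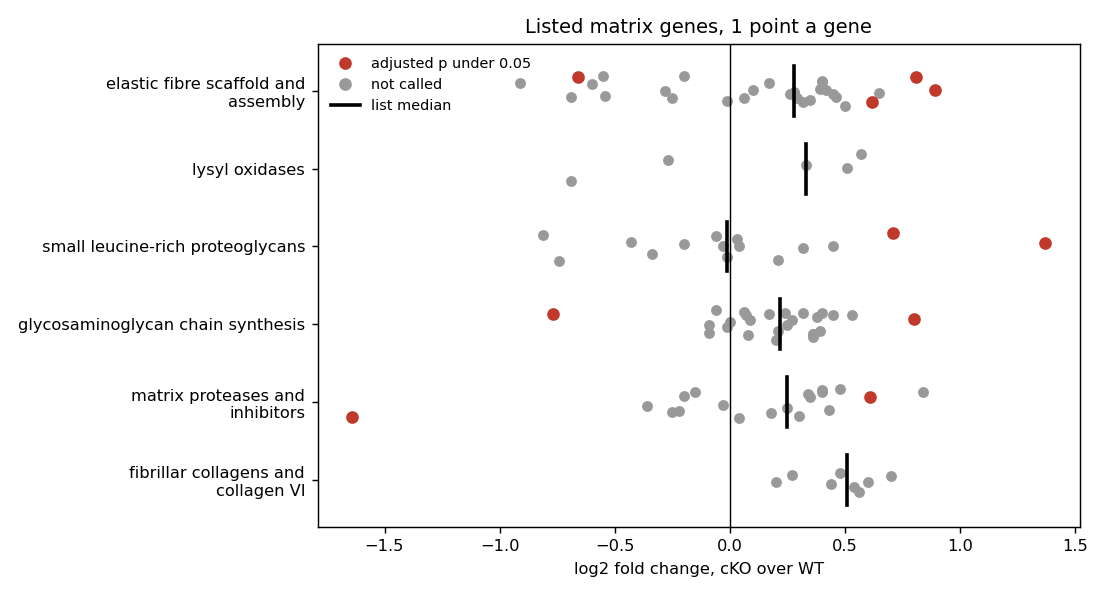
Log2 fold change, cKO over WT, of each tested gene in 6 lists of matrix genes, 1 point a gene with vertical jitter, red where the adjusted p was under 0.05 and a black bar at the list median. Called genes lie on both sides of 0 in 3 of the lists, and Ctsl at -1.64 lies farthest out.

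Of 19 tested matrix proteases and inhibitors, 1 rose and 1 fell (median 0.25). Ctsl, the lysosomal and secreted cysteine protease cathepsin L, fell to 150.3, 231 and 155 CPM in cKO libraries 1, 2 and 3, against 445, 664 and 559 CPM in WT libraries 1, 2 and 3 (log2 difference -1.64, SE 0.197, edgeR adjusted p = 0.000892), and kept its call in all 17 alternative fits. Bmp1, whose protease activates lysyl oxidase and trims biglycan and procollagens, rose to 445, 482 and 526 CPM in cKO, against 291, 372 and 289 CPM in WT (log2 difference 0.61, SE 0.14, edgeR adjusted p = 0.0388). The call of Bmp1 was lost without cKO library 3 (edgeR adjusted p = 0.178), WT library 1 (edgeR adjusted p = 0.169) or WT library 3 (edgeR adjusted p = 0.214), and the count of rises was 2 without WT library 2. Mmp2, a gelatinase and abundant in these testes, stood at 0.48 (edgeR adjusted p = 0.0839) with groups apart.

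The next list held fibrillar collagens, which form the fibrils that small proteoglycans coat, and also collagen VI. None of the 8 genes tested was called by edgeR with the low-count filter, by DESeq2 or by limma-voom. All 8 fold changes were positive (median 0.51). Groups lay apart for 1 of the 8, with cKO above, against 10.7% of all tested genes. The summed levels overlapped, at 17697 to 29505 CPM in cKO and 12647 to 20033 CPM in WT. At an unadjusted edgeR p under 0.05, 5 were higher, against 7.75% of all tested genes higher and 8.03% lower. The same threshold held 9 of 29 elastic fibre genes higher and 3 lower. It held 8 of 26 glycosaminoglycan genes higher and 1 lower, and 5 of 19 proteases or inhibitors higher and 1 lower. Col1a1 held 4677, 10273 and 9192 CPM in cKO libraries 1, 2 and 3, against 3342, 5991 and 5529.8 CPM in WT libraries 1, 2 and 3 (log2 difference 0.70, edgeR adjusted p = 0.274). Col3a1 stood at 0.56 (edgeR adjusted p = 0.25), Col1a2 at 0.60 (edgeR adjusted p = 0.232) and Col5a2 at 0.54 (edgeR adjusted p = 0.201). cKO library 1 was the lowest cKO library for each of these collagens, the reverse of its place for Dcn, Bgn and Ogn. The count of collagens called higher by edgeR was 3 without cKO library 1 and 5 with no low-count filter.

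Most markers of interstitial progenitors, the stromal cells between the cords, had a positive fold change in cKO. Of 12 tested, 9 were higher at an unadjusted edgeR p under 0.05, against 7.75% of all tested genes. Groups lay apart with cKO above for 9, against 10.7% of all tested genes. Together they summed to 4121 to 4435 CPM in cKO testes and 2589 to 3542 CPM in WT, with a median log2 fold change of 0.44, and none was at 0 in all libraries. The most abundant were Dlk1 (0.67, edgeR adjusted p = 0.106), Tcf21 (0.44, edgeR adjusted p = 0.102) and Pdgfra (0.41, edgeR adjusted p = 0.2). Sertoli cell markers moved the other way, with 9 of 12 called lower and a sum of 1221 to 1610.2 CPM in cKO and 2821 to 3738 CPM in WT, and markers of fetal Leydig cells summed to 5005 to 6844 CPM in cKO and 3794 to 4497 CPM in WT. The part of these shifts in the rise of Eln and Lum was not tested.

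Of 10 other marker lists, 7 had overlapping sums. Peritubular myoid and smooth muscle markers summed to 672 to 770.4 CPM in cKO and 653 to 817 CPM in WT, with 1 of 10 called, Des, higher at 0.72 on the log2 scale (edgeR adjusted p = 0.0276). Vascular mural markers summed to 609.9 to 720.0 CPM in cKO and 559 to 671 CPM in WT, and endothelial markers to 587 to 692 CPM in cKO and 541 to 621 CPM in WT, with 1 of 9 called, Kdr, higher at 0.66 (edgeR adjusted p = 0.0157). Coelomic epithelium and tunica markers summed to 396 to 450.0 CPM in cKO and 333 to 382 CPM in WT, without overlap. The largest part of that sum was Tcf21, which the progenitor list also holds. Tcf21 stood at 282, 242 and 264 CPM in cKO libraries 1 to 3, against 193, 217 and 171 CPM in WT. Adrenal markers, which include Star of Leydig cells, summed to 598 to 966 CPM in cKO and 454 to 588 CPM in WT, also without overlap. Markers of mesonephros and ducts (43.6 to 55.6 CPM in cKO and 33.3 to 51.3 CPM in WT) and of cartilage, bone, skeletal muscle and tendon (91.1 to 111 CPM in cKO and 93.5 to 101 CPM in WT) were low and overlapped. Germ cell markers summed to 752 to 1333 CPM in cKO and 1161 to 1592 CPM in WT, with cKO library 1 the lowest. Macrophage and leukocyte markers summed to 52.5 to 57.4 CPM in cKO and 42.2 to 52.1 CPM in WT, just apart, and erythroid markers to 99 to 273 CPM in cKO and 69.4 to 106 CPM in WT, with 1 of 4 called, Hba-a1, higher at 1.57 (edgeR adjusted p = 0.0292). No listed marker was at 0 in all libraries, and the part of these cell types in the results for Eln, Lum or the other 8 genes was not tested.

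**Figure D5:**
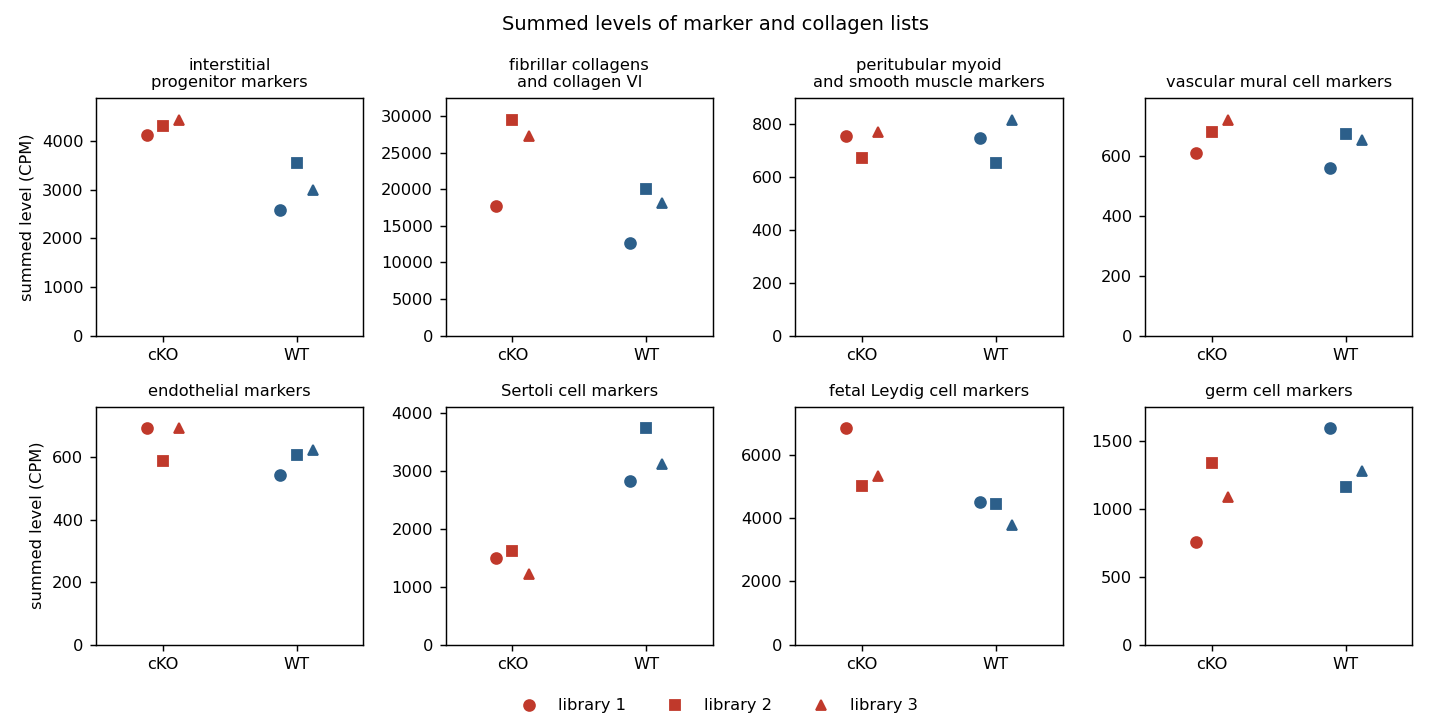
Summed CPM of 7 cell type marker lists and of the collagen list in each library, cKO (red) left of WT (blue), with symbols for the library number within a group. Interstitial progenitor and Leydig markers are higher and Sertoli markers lower in cKO without overlap, while collagen, myoid, mural, endothelial and germ cell sums overlap.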

How the data were processed

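RNA of whole testes was measured, from 3 animals of each genotype. Polyadenylated RNA was captured on oligo-dT beads, fragmented and read on an Illumina NovaSeq, per the labels' protocols. The submitters' processing notes list HISAT2 2.0.5 and GRCm38. No source used here gives the counting tool, the strand setting or the annotation. The deposited counts are raw whole numbers per gene, and 41096 of 42747 rows carry C57BL/6NJ identifiers, so coordinates are those of the files and no genome of that build was used. The deposited FPKM are the authors' counts scaled for gene length and library size. The sizes they imply run at 0.968 to 1.05 of the count totals and follow the TMM factors (0.963 to 1.04). Rows with no gene name (1651) held 0.823% of counts and are kept as features.

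Genes passing filterByExpr (18383) were fitted in R 4.3.3 with edgeR 4.0.16 (TMM scaling, glmQLFit, glmQLFTest) on genotype alone. Adjusted p follow Benjamini and Hochberg across these genes, called under 0.05. CPM used TMM-scaled totals, and the biological coefficient of variation was 19.7%. SE is the absolute log2 fold change over the square root of F. The alternatives were other scalings, DESeq2 1.42.0, limma 3.58.1 (voom, and trend on log2(FPKM + 0.1) and log2(FPKM + 1)), other filters, protein-coding genes alone, the replicate number as a block, and each library left out. The members and lists were chosen with earlier results of these data known. Of 221 listed symbols 214 were matched. The naming rule took the 10 members, called genes (or the 2 with the smallest p) and the 2 most abundant by FPKM of each matrix list, abundant markers, and the 10 genes of most similar profile. Optc, Des, Ddx4, Kera, Epyc and Xylt2 are named outside this rule, after their values were seen. The result of 1 gene is not reported here. On simulated data for cKO against WT (18383 genes, 200 changed), the fit recovered 60.7% of those set at a log2 change of 1 and 95.7% of those set at 2, with 8 false calls among 170. p-values measure the spread between these animals only. Replicates differed beyond sampling noise, and each counted as 1.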

Additional observations from a re-analysis of the deposited data

How the results depend on the processing

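Among the 10 genes, Eln, Lum, Emilin1, Dcn and Fmod kept a positive fold change in all 17 alternatives. The count called higher was 2 as reported, 3 with no low-count filter, 0 with limma-trend on log2(FPKM + 0.1) and 0 on log2(FPKM + 1), and 0 to 2 with 1 library left out; the count called lower was 0 in every fit. Over all tested genes the counts were 276 higher and 339 lower, with 527 and 574 by DESeq2, 613 and 651 with no low-count filter, 149 and 223 on log2(FPKM + 0.1), 156 higher on log2(FPKM + 1), and 105 to 342 higher and 167 to 399 lower with 1 library left out. With no low-count filter edgeR called higher 6 elastic fibre genes, 2 lysyl oxidases, 2 glycosaminoglycan genes, 3 proteases or inhibitors and 5 collagens. DESeq2 called 3 proteases or inhibitors higher. Falls among elastic fibre genes numbered 2 under DESeq2, library totals alone, no filter or the block. Both FPKM fits called 0 higher in the elastic fibre, proteoglycan, glycosaminoglycan and protease lists. They called 0 lower in the elastic fibre, proteoglycan and glycosaminoglycan lists and 1 lower in the protease list. Values near 0 changed sign. Fbn1 (-0.01 as reported) was 0.01 by limma-voom, 0.02 on both FPKM scales, 0.01 with the replicate block, and -0.16 to 0.09 with 1 library left out, reaching 0.06, 0.09 and 0.08 without cKO library 1, WT library 2 and WT library 3. With 1 library left out, Bgn ran from -0.31 to 0.26 and Ogn from -0.29 to 0.26, both positive without cKO library 2 and without WT library 3 (0.14 for Bgn, 0.10 for Ogn). Fbn2 ran from -0.07 (without WT library 1) to 0.24 and Fbln5 from -0.06 (without cKO library 3) to 0.15. The cause was not tested. A scaling moved the median of all genes by at most 0.03. Same-numbered libraries correlated at 0.03, 0.17 and 0.04 in their deviations from group means, and cKO library 1 correlated best with WT library 3, so the numbers were not taken as pairs. With the replicate block the members called higher were 2 and lower 0, against 324 higher and 372 lower over all genes, and 4 collagens were called higher.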
